A study of Mus musculus with 2 samples.

Results

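Immediate early genes and heat shock genes are the transcripts that rise first when a cell is stimulated or stressed. Among the 31053 genes counted in newborn mouse eye cups, 38 were chosen by symbol for this description, 28 immediate early genes and 10 heat shock genes, and all 38 were found in both single-cell libraries. The study asked what loss of Myrf, a membrane-associated transcription factor, does to the retinal pigment epithelium (RPE) and to its neighbors. A Myrf fl/fl library served as control and an Rx>cre Myrf fl/fl library as mutant, both at postnatal day 0 and each made from 3 pooled eye cups. Both groups therefore carry floxed Myrf, and the mutant adds cre under Rx, a gene of the early eye field that gives rise to retina and RPE alike. Choroid, vessels, periocular mesenchyme and blood do not descend from that field, so their cells in the mutant library come from a mutant eye but not from the lineage in which the cre acts. There is 1 library per genotype. No test between genotypes is possible for that reason. Paired values are given for the control first and the mutant second, and the intervals given below cover counting error alone.

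Immediate early genes need no new protein to be switched on. Serum response factor at CArG boxes and CREB at cAMP response elements are the best known routes, and the products are transcription factors of the AP-1, EGR, KLF and C/EBP families together with inhibitors that shut the response down again. Heat shock genes encode chaperones that hold and refold proteins, and the inducible ones are switched on by heat shock factor 1 at heat shock elements in their promoters. Hspa8, Hsp90aa1, Hspe1 and Hspd1 are also made at high level without stress, whereas Hspa1a and Hspa1b are nearly silent at rest. Both programs are widely known to respond to tissue dissociation, and these eye cups were digested in warm papain before capture.

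RefSeq promoter sequences (build GRCm38.p6, 250 bases before to 50 bases after a start site) were matched for 24 of the 28 immediate early genes and 8 of the 10 heat shock genes; Egr1, Ier2, Cebpd, Myc, Hsp90aa1 and Hspa8 were not matched. A heat shock element, read here as GAANNTTC or TTCNNGAA, each of which reads the same on both strands, was present for 7 of the 8 matched heat shock genes and for 3 of the 24 immediate early genes, and in 15.1% of all 32851 promoter windows. The cAMP response element TGACGTCA, also the same on both strands, was present for Dusp1, Btg2 and Ppp1r15a, 3 of the 24 immediate early genes, for 0 of the 8 heat shock genes and in 1.79% of all windows. A CArG box was found for Egr2 and Zfp36, for 0 of the 8 heat shock genes and in 1.63% of all windows. The AP-1 sites TGACTCA and TGAGTCA, each the reverse complement of the other, were in 0 of the 24 and 0 of the 8, against 5.2% of all windows. CCAAT or its complement ATTGG was present for 6 of the 8 heat shock genes and 11 of the 24 immediate early genes, against 37.4% of all windows. Genes with several windows had more chances of a match, and on a per-gene basis 17.0% of all genes had a heat shock element in at least 1 window. The windows below show how single, spaced and overlapping heat shock elements lie in 4 heat shock promoters, with the elements in capitals, followed by 3 immediate early promoters, with the cAMP response element or CArG box in capitals.
Hspa1a promoter, chr17:34972107-34972406, minus strand: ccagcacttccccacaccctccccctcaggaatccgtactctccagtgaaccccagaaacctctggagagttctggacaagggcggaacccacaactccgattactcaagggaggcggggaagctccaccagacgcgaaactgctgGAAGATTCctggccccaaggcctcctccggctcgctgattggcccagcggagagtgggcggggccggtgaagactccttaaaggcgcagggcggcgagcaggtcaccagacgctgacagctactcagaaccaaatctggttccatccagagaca
Hsph1 promoter, chr5:149636287-149636586, minus strand: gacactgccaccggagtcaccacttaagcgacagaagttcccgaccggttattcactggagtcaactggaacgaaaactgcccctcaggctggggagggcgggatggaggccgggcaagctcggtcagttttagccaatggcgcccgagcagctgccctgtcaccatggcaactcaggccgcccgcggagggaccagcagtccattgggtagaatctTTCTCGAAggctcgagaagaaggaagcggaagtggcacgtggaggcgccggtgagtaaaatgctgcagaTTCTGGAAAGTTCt
Hspb1 promoter, chr5:135887669-135887968, plus strand: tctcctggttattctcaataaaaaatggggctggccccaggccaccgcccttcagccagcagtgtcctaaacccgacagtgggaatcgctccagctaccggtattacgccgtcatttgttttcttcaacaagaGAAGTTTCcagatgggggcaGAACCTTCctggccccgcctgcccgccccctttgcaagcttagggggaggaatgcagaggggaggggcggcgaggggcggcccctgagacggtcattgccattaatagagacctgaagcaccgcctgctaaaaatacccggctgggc
Hspe1 promoter, chr1:55087898-55088197, plus strand: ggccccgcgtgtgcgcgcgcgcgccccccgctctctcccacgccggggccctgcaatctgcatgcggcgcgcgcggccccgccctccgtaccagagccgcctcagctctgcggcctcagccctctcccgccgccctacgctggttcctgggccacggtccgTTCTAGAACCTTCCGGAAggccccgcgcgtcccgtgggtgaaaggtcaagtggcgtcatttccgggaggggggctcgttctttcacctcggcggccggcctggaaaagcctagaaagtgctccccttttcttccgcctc
Ppp1r15a promoter, chr7:45526219-45526518, minus strand: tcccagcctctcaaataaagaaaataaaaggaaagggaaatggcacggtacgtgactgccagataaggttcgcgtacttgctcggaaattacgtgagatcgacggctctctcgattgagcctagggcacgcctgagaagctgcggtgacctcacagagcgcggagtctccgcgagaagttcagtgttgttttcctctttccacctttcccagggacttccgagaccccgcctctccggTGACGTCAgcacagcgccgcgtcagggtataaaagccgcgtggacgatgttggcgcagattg
Btg2 promoter, chr1:134079106-134079405, minus strand: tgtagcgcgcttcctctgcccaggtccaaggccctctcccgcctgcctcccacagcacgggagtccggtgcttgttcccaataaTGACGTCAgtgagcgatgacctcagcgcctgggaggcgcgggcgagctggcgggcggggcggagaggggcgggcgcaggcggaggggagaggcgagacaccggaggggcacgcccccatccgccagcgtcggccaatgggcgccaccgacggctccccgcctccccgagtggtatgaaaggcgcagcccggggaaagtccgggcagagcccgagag
Zfp36 promoter, chr7:28379179-28379478, minus strand: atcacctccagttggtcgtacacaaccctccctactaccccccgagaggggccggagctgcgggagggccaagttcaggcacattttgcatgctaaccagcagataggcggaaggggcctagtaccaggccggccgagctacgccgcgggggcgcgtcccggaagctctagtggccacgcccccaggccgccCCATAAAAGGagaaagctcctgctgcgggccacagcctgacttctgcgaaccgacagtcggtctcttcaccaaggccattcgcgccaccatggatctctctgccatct
Several heat shock elements overlap, in Hsph1 and above all in Hspe1, whose 3 matches run into each other. A window of Hspd1, which starts on the opposite strand next to Hspe1, holds the same 3 overlapping matches. The Hspa1a and Hspa1b windows were 98.7% identical over 300 aligned bases, and reads from such near copies may be split between them or dropped, so the counts of Hspa1a and Hspa1b are uncertain as separate genes. A match is only a match of letters, and binding was not measured.

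The control library held 14305 barcodes with a median of 4201 unique molecular identifiers (UMIs, the count of captured molecules) and the mutant 12222 with a median of 4952; 59 barcodes occur in both. After filters 12514 control and 10851 mutant cells remained, and clustering without the genes described here gave 15 classes with at least 15 cells in each library, of which 7 had at least 100 and were compared between genotypes. Class names rest on marker genes and carry the suffix -like. Myrf itself was at 227 CPM (a gene's UMIs relative to all UMIs of its class, with the total set to the same value in every class) in control RPE-like cells and 27.5 CPM in mutant ones, from 746 and 63 UMIs, and at 1.37 and 0.673 CPM in all other cells; whether 3′ tags lie outside the deleted part is not given in the sources used here. Of the 10 RPE markers, 8 and 7 were more than 2-fold above all other cells, and Rpe65, an enzyme of the visual cycle, had 12 and 0 UMIs. RPE-like cells numbered 514 and 197, and their depth differed widely, with medians of 2442.5 and 10369 UMIs and median mitochondrial shares of 4.55% and 5.38%. Endothelial-like cells numbered 439 and 168, with medians of 4180 and 9129.5 UMIs. In the other 5 compared classes the medians lay closer together, for example 4457 and 4713.5 UMIs in retinal progenitor-like cells.

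The summed level of the immediate early genes differed more between cell classes than between genotypes. It was lowest in red blood-like cells, at 436 and 620 CPM, and highest in macrophage or other white blood-like cells, at 8441 and 7868 CPM. Endothelial-like cells followed with 6257 and 7488 CPM. RPE-like cells, at 2572 and 2436 CPM, were in the lower part of the range together with amacrine-like cells at 2379 and 2502 CPM. Melanocyte-like cells were lower, at 1124 and 1221 CPM, while retinal progenitor-like cells reached 3182 and 3464 CPM. A sum is carried by its most abundant genes, and the median over the 28 genes gave another order. It was 41.8 and 35.1 CPM in RPE-like, 17.6 and 17.4 CPM in amacrine-like and 15.2 and 16.1 CPM in retinal progenitor-like cells.

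AP-1 subunits differed in their favored cells. Fos was at 789 and 778 CPM in white blood-like cells, where Jun (860 and 706 CPM) and Junb (706 and 561 CPM) were also high, and Fos was at 295 and 403 CPM in RPE-like cells. Its lowest level was in red blood-like cells, at 17.1 and 22.2 CPM. Free RNA was not measured. Red blood-like cells had median depths of 3579 and 11715 UMIs, so their levels and shares set no floor for classes of other depth. After each cell was thinned to 1000 UMIs, 1.77% and 2.41% of red blood-like cells had a Fos UMI, against 12.9% and 16.5% of RPE-like cells and 15.4% and 18.5% of retinal progenitor-like cells. Jund, the AP-1 subunit made without stimulation, was highest in photoreceptor-like cells, at 983 and 901 CPM, although neurogenic-like cells of the mutant reached nearly the same level with overlapping intervals, and even red blood-like cells had 156 and 213 CPM. Fosl2 stood out in surface epithelium-like cells at 281 and 200 CPM, with the next class in the control, the white blood-like cells, at 40.3 CPM. Fosb was low everywhere. Its highest level was 11.7 CPM in the control, in white blood-like cells, and 30.1 CPM in the mutant, in RPE-like cells, and neither neurogenic-like nor photoreceptor-like nor amacrine-like cells had 20 Fosb UMIs over both libraries.

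Among the other factors, Klf2, a gene switched on by blood flow, was at 1031 and 1328 CPM in endothelial-like cells. It was also at 280 and 303 CPM in mesenchyme-like cells, and at 3.95 and 4.21 CPM in retinal progenitor-like cells. Cebpb, a factor of myeloid cells, was at 1200 and 1243 CPM in white blood-like cells, with pericyte-like cells next at 198 and 230 CPM. Egr1 was at 395 CPM in muscle-like and 344 CPM in astrocyte-like cells of the control and at 231 CPM in retinal progenitor-like and 225 CPM in muscle-like cells of the mutant, the leading pair in each library having overlapping intervals. Egr2 reached at most 12.9 CPM, in white blood-like cells of the mutant. Atf3, a stress-induced repressor, was at 62.6 and 25.8 CPM in white blood-like cells and at 14.6 and 3.92 CPM in RPE-like cells.

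Genes that brake growth or signaling were spread differently. Btg2, an antiproliferative gene of cells leaving the cycle, was at 1387 and 1477 CPM in neurogenic-like cells and 1185 and 1213 CPM in photoreceptor-like cells, against 129 and 134 CPM in retinal progenitor-like cells. Its relative Btg1 was at 749 and 914 CPM in amacrine-like cells and 759 and 810 CPM in photoreceptor-like cells. Ier5 was highest in amacrine-like cells, at 358 and 336 CPM. Ier3 was highest in astrocyte-like cells at 1389 and 452 CPM, from only 31 and 33 cells. Zfp36, which speeds decay of inflammatory transcripts, was at 471 and 499 CPM in white blood-like cells, followed by pericyte-like cells at 120 CPM in the control and endothelial-like cells at 132 CPM in the mutant. Ppp1r15a, which restores protein synthesis after stress, was highest in RPE-like cells in the control, at 112 CPM, with pericyte-like cells next at 47.6 CPM. In the mutant it was at 71.5 CPM in RPE-like cells and at 101 CPM in the 18 peripheral glia-like cells.

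The summed level of the heat shock genes lay between 1772 and 3344 CPM in all classes other than red blood-like cells, at 341 and 334 CPM, and surface epithelium-like cells, at 6003 and 6674 CPM. The latter held Hspb1, a small heat shock protein of epithelia, at 4303 and 4925 CPM. Hspa8, the constitutive Hsp70, was between 813 and 1253 CPM in the classes of the neural retina, and Hsp90aa1 was at 1066 and 969 CPM in RPE-like cells and 1019 and 974 CPM in retinal progenitor-like cells, against 341 and 301 CPM in mesenchyme-like cells. The inducible Hspa1a split the eye cup. It reached at most 4.12 CPM in all 4 neural retina-like classes (retinal progenitor-like, amacrine-like, photoreceptor-like and neurogenic-like) of both libraries, and at 98.6 and 146 CPM in RPE-like cells, 108 and 72.5 CPM in mesenchyme-like cells, 191 and 176 CPM in endothelial-like cells and 280 and 307 CPM in white blood-like cells. After thinning, 9 of 4373 control and 7 of 5033 mutant retinal progenitor-like cells had an Hspa1a UMI, 0.206% and 0.139%, against 3.16% and 11.2% of RPE-like cells and 0 of the thinned red blood-like cells of either library. Hspa1b followed the same split.

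**Figure D1:**
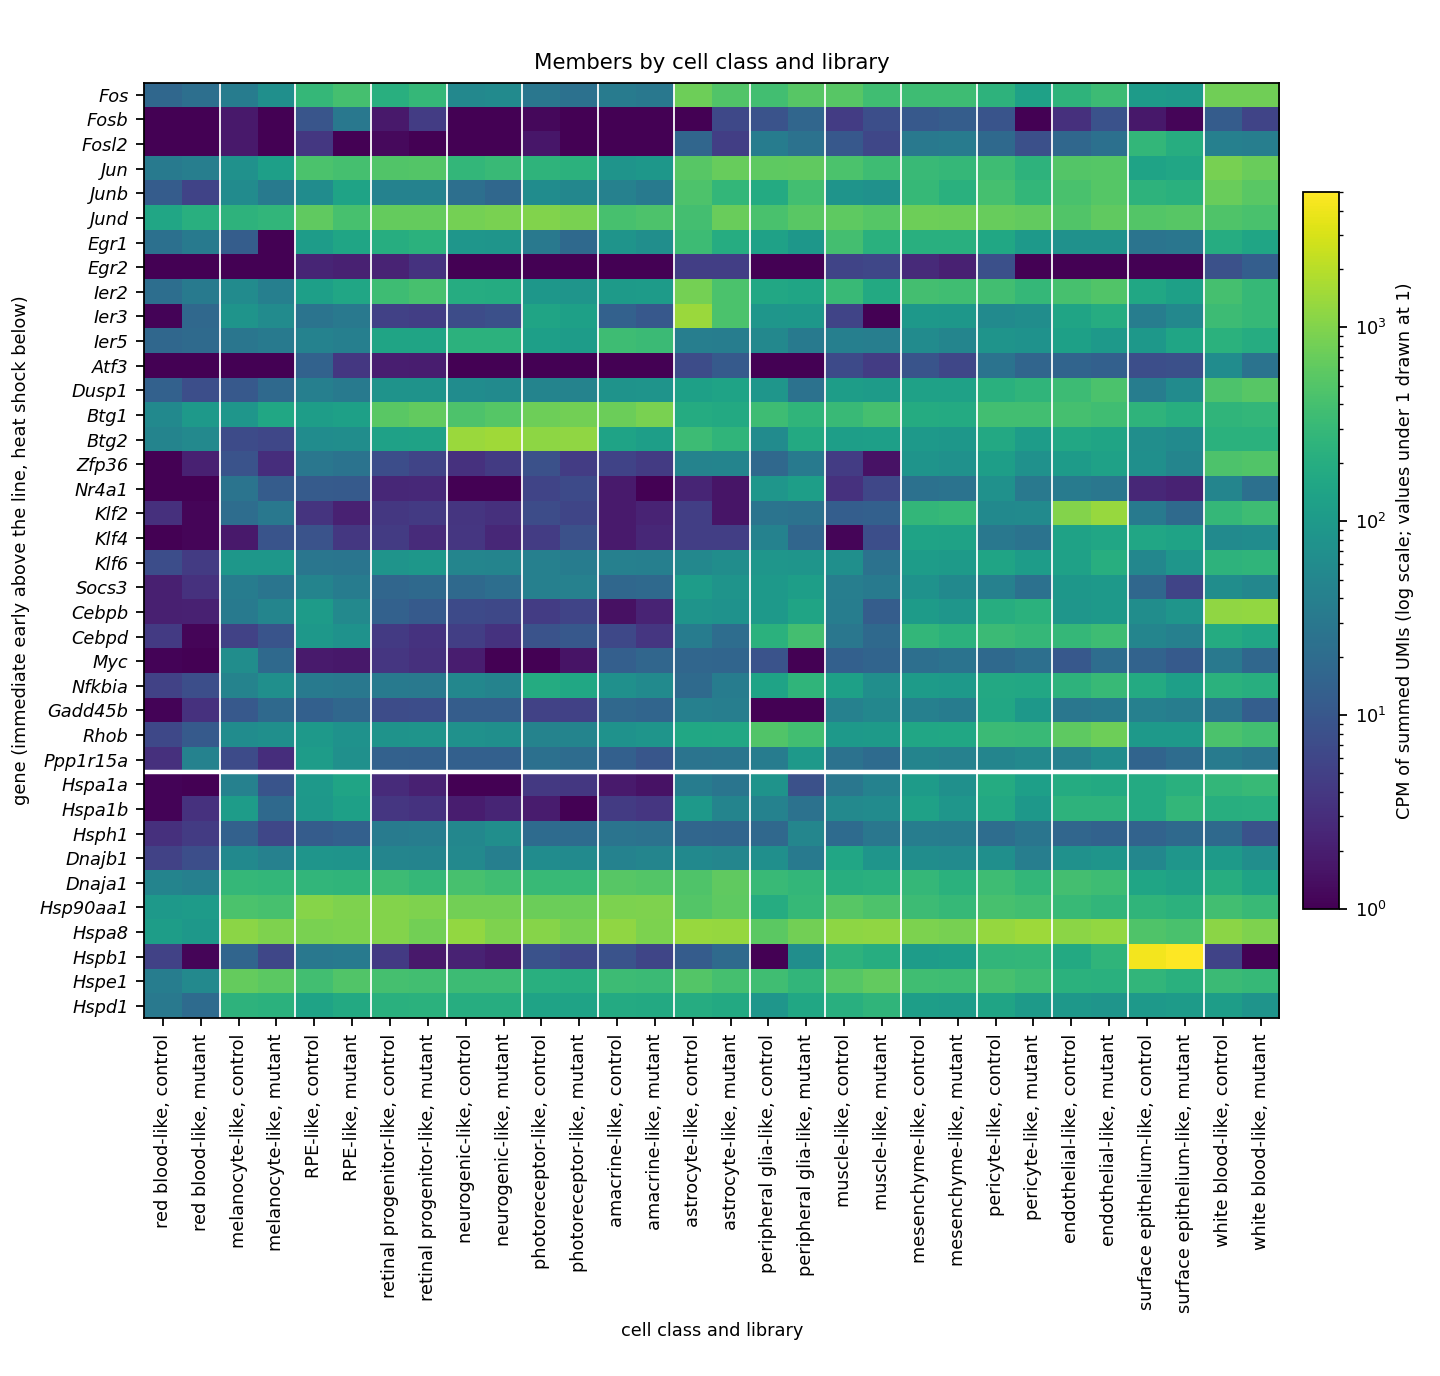
Level of each of the 38 genes (rows) in 15 cell classes of the control and mutant libraries (columns), as CPM of summed UMIs on a logarithmic color scale. White blood-like stands for macrophage or other white blood-like; paired columns resemble each other, Klf2 is brightest in endothelial-like cells (1031 and 1328 CPM), Hspb1 in surface epithelium-like cells (4303 and 4925 CPM), and Hspa1a and Hspa1b are dark in the neural retina-like classes.

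Taken over RPE-like cells of all depths, the genotypes differed in single immediate early genes, in both directions, more than in the group median. A gene was measured in a class if it had at least 20 UMIs over both libraries, and is called higher or lower if its log2 ratio (mutant over control, 1 CPM added to each) is past 1.5-fold and the 95% interval of the plain ratio lies apart from 0. Of the 28 immediate early genes 24 were measured, Fosl2, Egr2, Klf2 and Myc being too low. Fosb and Junb were higher and Jund, Atf3, Klf4, Cebpb and Ppp1r15a lower, so 7 of 24 were called, against 14.8% of all 11096 measured genes (5.52% higher and 9.31% lower). The median log2 ratio of the 24 was -0.14, beside -0.01 for all measured genes, and 9 of the 24 were above 0. In shallow cells the immediate early median was lower. It was -0.65 in cells of 1000 to 4000 UMIs (12 genes measured) and -1.06 in cells of at most 2000 UMIs (8 genes).

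Fosb and Junb, both AP-1 subunits, had the highest log2 ratios of the 24. Fosb was at 9.43 and 30.1 CPM, from 31 and 69 UMIs, a log2 ratio of 1.57 (95% counting interval 1.04 to 2.33). Junb was at 63.3 and 142 CPM, from 208 and 325 UMIs, with a log2 ratio of 1.15 (0.91 to 1.42). Their partners did not share this size: Fos had a log2 ratio of 0.45 (0.32 to 0.58), from 295 to 403 CPM, Jun of -0.15 (-0.27 to -0.03), from 447 to 402 CPM, and Jund was lower, from 629 to 415 CPM, at -0.60 (-0.71 to -0.49). Fos, Egr1 (111 and 149 CPM, 0.42) and Ier2 (124 and 153 CPM, 0.31) all lay above 0 with intervals apart from it but under 1.5-fold.

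Cebpb, which with Cebpd mediates inflammatory gene expression, was at 108 and 55.3 CPM, a log2 ratio of -0.96 (-1.27 to -0.67), while Cebpd had -0.27 (-0.55 to -0.00). Ppp1r15a was at 112 and 71.5 CPM, -0.64 (-0.92 to -0.38), but it turned to 0.41 in cells of at most 2000 UMIs and was -0.57 in thinned and -0.29 in equally weighted cells. Atf3 had 48 and 9 UMIs, -1.66 (-3.11 to -0.85). Klf4, a factor of epithelial and vascular quiescence, had 29 and 9 UMIs, -0.997 (-2.43 to -0.05), the interval nearest to 0 among the called genes. The inhibitors Dusp1 (-0.22), Nfkbia (-0.14), Socs3 (-0.35) and Zfp36 (-0.19) were not called, and each of their intervals held 0. Markers of white blood cells, in which Cebpb and Atf3 were highest, summed to 57.5 CPM and 40.5 CPM in RPE-like cells over 8 genes, of which 3 and 4 were at 0, and the part of such cells or their RNA in the lower Cebpb and Atf3 was not tested.

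**Figure D2:**
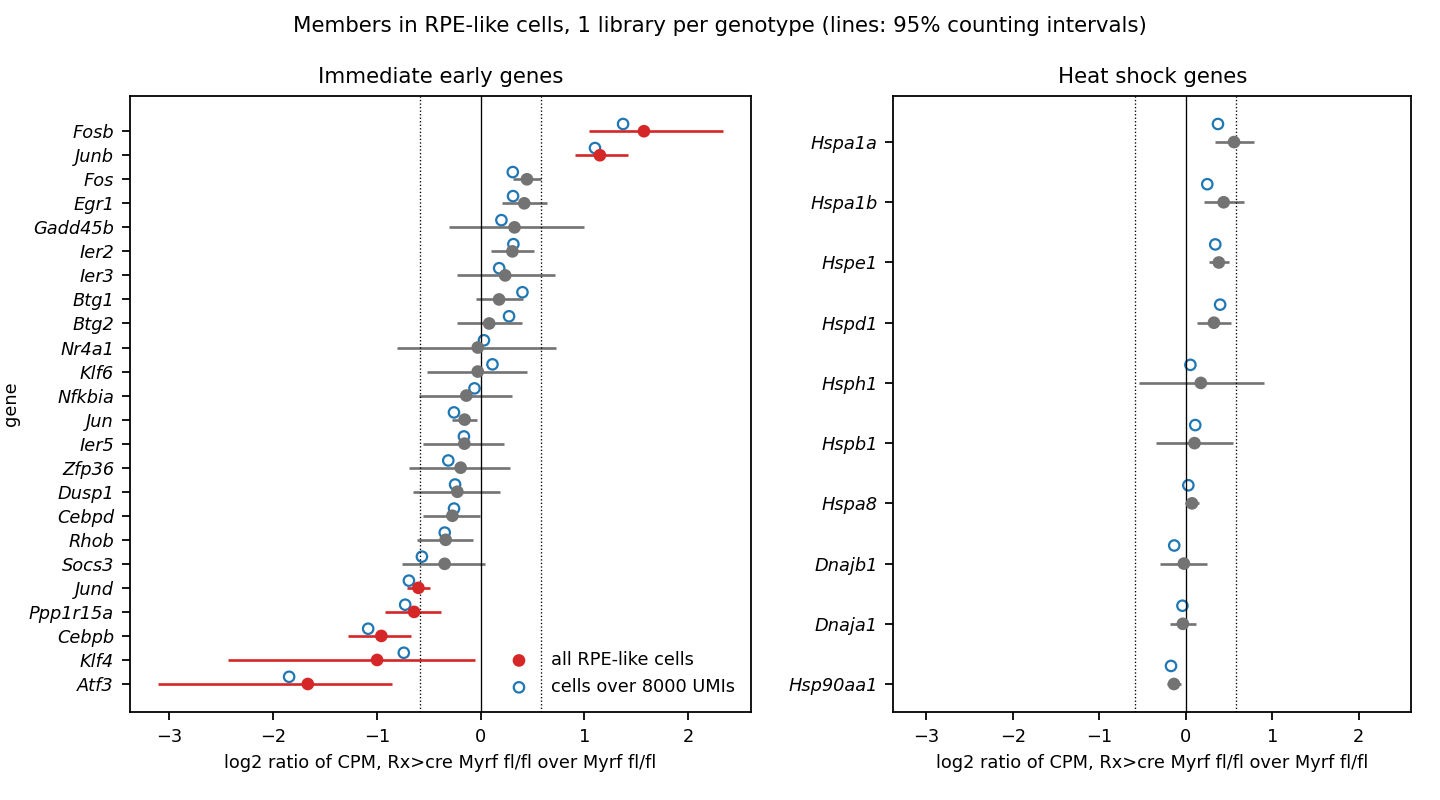
Log2 ratio of CPM (mutant over control) for the measured immediate early genes (left) and heat shock genes (right) in RPE-like cells, with 95% counting intervals as lines, called genes in red, dotted lines at 1.5-fold, and open blue circles for cells over 8000 UMIs alone. Fosb (1.57) and Junb (1.15) stand at the top, Atf3 (-1.66) at the bottom, and all 10 heat shock genes lie within the dotted lines.

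Because RPE-like cells were so much deeper in the mutant, the called genes were also read within narrow ranges of depth. Among cells over 8000 UMIs, 151 and 110 of them with medians of 16095 and 17088 UMIs, Fosb (1.37), Junb (1.10), Jund (-0.69), Atf3 (-1.84), Cebpb (-1.08) and Ppp1r15a (-0.73) were called in the same direction. Klf4 had -0.74 there with an interval that held 0. The size of Jund and Cebpb was lost under other settings: for Jund in RPE-like cells the log2 ratio was -0.36 in thinned cells, -0.44 with cells weighted equally, -0.53 with no doublet removed, -0.55 at a mitochondrial share of at most 5% and -0.54 with mitochondrial, ribosomal protein and globin genes left out of the total. For Cebpb in RPE-like cells it was -0.55 in thinned and -0.53 in equally weighted cells. Among cells of 1000 to 4000 UMIs, 213 and only 35, there were 0 Fosb UMIs in either library, 14 and 0 of Junb, and Jund had a log2 ratio of -0.01. Jun (76 and 4 UMIs, -1.73), Ier2 (50 and 1, -3.05) and Cebpd (44 and 1, -2.86) were called lower in these shallow cells, though not over all cells. Cells over 8000 UMIs held all 69 Fosb UMIs and 324 of the 325 Junb UMIs of the mutant. In cells thinned to 1000 UMIs the log2 ratio of Junb was 0.74, and Junb was in 4.62% (2.81 to 7.13) and 6.47% (3.27 to 11.3) of cells, shares whose intervals overlap. Fosb was then in 3 of 411 control and 0 of 170 mutant cells, too few for a ratio.

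Few cells held most of the UMIs of the inducible genes. In the mutant, 25 of 197 RPE-like cells had the 69 Fosb UMIs, and 10 of them held 71.0%. For Junb 10 cells held 49.5% and 51.4% of the UMIs, and for Hspa1a 55.2% and 63.2%. The 48 Atf3 UMIs of the control lay in 20 of 514 cells, of which 1 held 14 and 3 held at least 50%, and the 9 of the mutant in 6 cells. By contrast 10 cells held 11.8% and 19.7% of the UMIs of Hspa8. Counting intervals take no account of differences between cells and are too narrow for genes like Fosb, Junb, Atf3 and Hspa1a.

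None of the 10 heat shock genes was called in RPE-like cells, where all 10 were measured, beside 14.8% of all 11096 measured genes (5.52% higher and 9.31% lower). With 10 genes a count of 0 is not far from that share. Their median log2 ratio was 0.14, and 7 of 10 were above 0, though the median was -0.09 when cells were thinned to 1000 UMIs. Hspa1a was at 98.6 and 146 CPM, a log2 ratio of 0.56 (0.34 to 0.79), and Hspa1b at 93.4 and 127 CPM, 0.44 (0.21 to 0.68). The mitochondrial pair Hspe1 (381 and 497 CPM, 0.38) and Hspd1 (142 and 178 CPM, 0.32), which form one folding chamber, also had intervals above 0. The annotated Hspe1 and Hspd1 genes overlap on opposite strands, as Junb does with Prdx2, Cebpb with Tmem189 and Ppp1r15a with Tulp2. Whether reads from such overlaps were kept apart by strand is not given in the sources used here. Hspa8 (900 and 946 CPM, 0.07), Dnajb1 (84.6 and 83.2 CPM, -0.02) and Dnaja1 (271 and 265 CPM, -0.03) had intervals that held 0, and Hsp90aa1 had -0.14 (-0.21 to -0.06). After thinning, Hspa1a was in 3.16% (1.69 to 5.35) of control and 11.2% (6.86 to 16.9) of mutant RPE-like cells, while its near copy Hspa1b was in 3.89% and 3.53%. Hspe1 was in 31.9% (27.4 to 36.6) of control and 44.1% (36.5 to 51.9) of mutant RPE-like cells.

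Fos, Jun, Egr1 and Ier2, the immediate early genes looked at for this, were more often found in RPE-like cells that also held Hspa1a or Hspa1b. Cells with at least 4000 UMIs were thinned to that number, which left 198 control and 135 mutant cells, and 42 in each library had an Hspa1a or Hspa1b UMI. Of those 42, 78.6% (63.2 to 89.7) had a Fos UMI in either library, against 24.4% (17.9 to 31.9) of the 156 other control cells and 26.9% (18.2 to 37.1) of the 93 other mutant cells. Egr1 was in 24 and 21 of the 42 cells with Hspa1a or Hspa1b, against 24 of 156 and 13 of 93 of the others. Jun was in 37 and 28 of the 42, against 62 of 156 and 28 of 93, and Ier2 in 19 and 22 of the 42, against 30 of 156 and 17 of 93. Egr1 and Fos were also found together, Egr1 being in 49.3% and 46.6% of Fos-positive and in 10.2% and 9.09% of Fos-negative RPE-like cells, in the control and mutant respectively.

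Mesenchyme-like and endothelial-like cells showed the same pairing of Fos with Hspa1a or Hspa1b. In mesenchyme-like cells 67.4% (62.4 to 72.0) of control and 76.0% (68.9 to 82.2) of mutant cells with Hspa1a or Hspa1b had Fos, against 37.7% and 38.6% of those without. In endothelial-like cells the shares were 66.3% and 59.6%, against 20.8% and 27.3%. Retinal progenitor-like cells differed in that only 52 of 2754 control and 67 of 3434 mutant cells had Hspa1a or Hspa1b, and their shares with Fos, 48.1% (34.0 to 62.4) and 41.8% (29.8 to 54.5), overlapped those of the remaining cells, 35.9% (34.1 to 37.8) and 40.3% (38.6 to 42.0). Fos and Egr1 were nonetheless paired there, with Egr1 in 601 of 996 and 862 of 1384 Fos-positive and in 539 of 1758 and 553 of 2050 Fos-negative cells. These shares describe cells of 1 library each and were not tested, and cells of 1 class can still differ in subtype.

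**Figure D3:**
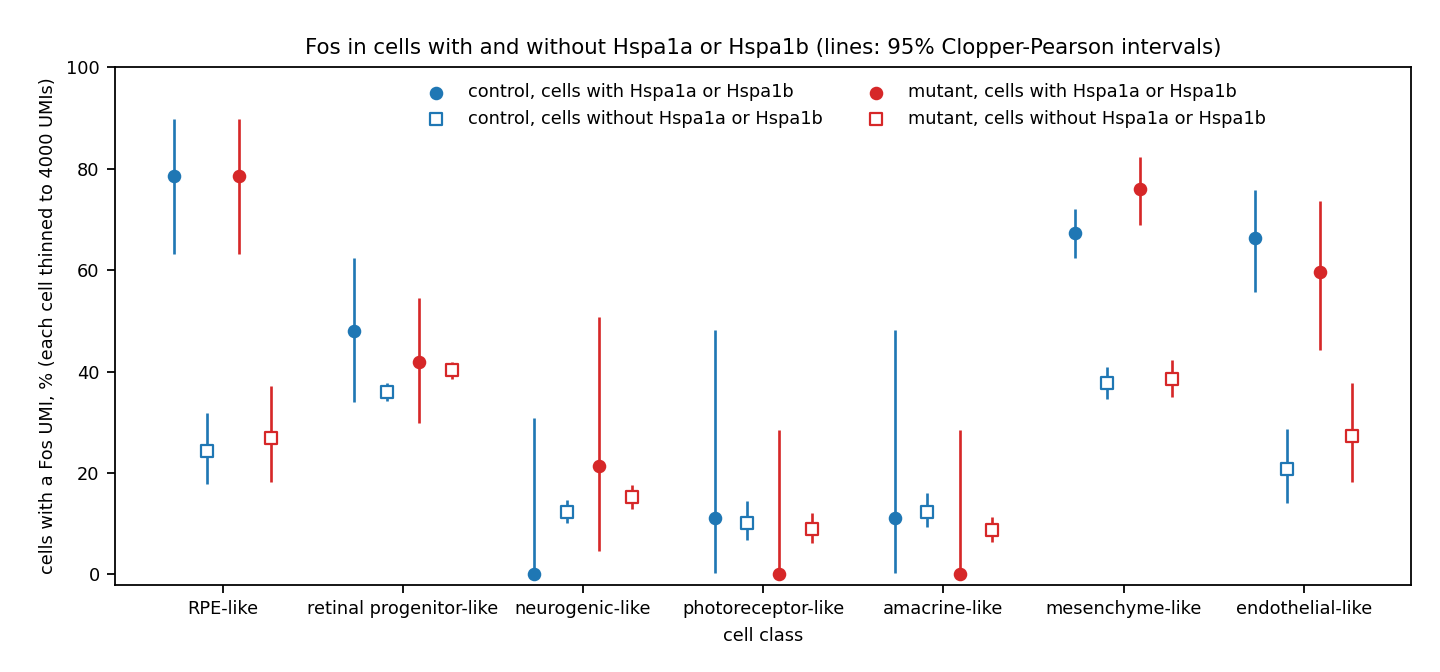
Share of cells with a Fos UMI among cells with (filled circles) and without (open squares) an Hspa1a or Hspa1b UMI, in 7 classes of the control (blue) and mutant (red) library, each cell thinned to 4000 UMIs, with 95% Clopper-Pearson intervals as lines. The intervals of the 2 sets lie apart in RPE-like, mesenchyme-like and endothelial-like cells of both libraries (78.6% against 24.4% in control RPE-like cells) and overlap in the 4 neural retina-like classes.

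Retinal progenitor-like cells, 4437 and 5062 of them, gave the most precise values and few differences. All 28 immediate early genes were measured and only Fosb was called, at 1.79 and 4.56 CPM, a log2 ratio of 0.99 (0.81 to 1.92 for the plain ratio); 3.2% of all 13981 measured genes were called, 1.34% higher and 1.86% lower. The ratio of Fosb ran from 0.30 to 1.34 over the alternative settings. Fos was at 215 and 293 CPM, 0.44 (0.39 to 0.49), Ier2 at 356 and 423 CPM, 0.25 (0.21 to 0.29), and Egr1 at 204 and 231 CPM, 0.18 (0.12 to 0.24). The median over the 28 genes was 0.02, beside 0.04 for all measured genes, and its sign turned when libraries were scaled by TMM factors (-0.02) or the median ratio (-0.02). In cells of at most 2000 UMIs the immediate early median was 0.61, over the 12 genes then measured. Of the 10 heat shock genes only Hspb1 was called, lower at 4.19 and 1.78 CPM, from 89 and 46 UMIs, -0.90 (-1.78 to -0.71). Cryab, a related small heat shock protein and lens crystallin, was lower too, at 20.2 and 2.47 CPM in these cells (-2.61). It was also lower in neurogenic-like, photoreceptor-like, amacrine-like and endothelial-like cells, in none of which Hspb1 was called. In endothelial-like cells Cryab had a log2 ratio of -1.29 and Hspb1 of 0.58. Lens-like cells, 233 in the control and 1 in the mutant, held Cryab at 1183 CPM and Hspb1 at 8.1 CPM in the control, and the part of lens RNA in the lower Hspb1 was not tested. Fosb was thus above 0 in all 4 classes in which it was measured and called in 3 of them, of which endothelial-like cells had only 11 and 16 UMIs, with mesenchyme-like cells at 10.7 and 12.3 CPM, 0.18 (-0.14 to 0.52).

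Hspa8 was lower by nearly the same amount in each neural retina-like class, without reaching 1.5-fold. It was at 1038 and 813 CPM in retinal progenitor-like cells, a log2 ratio of -0.35 (-0.38 to -0.32), at 1253 and 961 CPM in neurogenic-like cells, -0.38 (-0.43 to -0.33), at 1061 and 861 CPM in photoreceptor-like cells, -0.30 (-0.36 to -0.24), and at 1226 and 945 CPM in amacrine-like cells, -0.37 (-0.44 to -0.31). Outside the neural retina the log2 ratios were 0.07 in RPE-like cells, -0.08 in mesenchyme-like cells and 0.14 in endothelial-like cells. In retinal progenitor-like, neurogenic-like and photoreceptor-like cells all 14 alternative settings kept Hspa8 below 0, and in amacrine-like cells 13 of 14 did. Its partner Dnaja1 was below 0 in all 7 classes, from -0.30 in mesenchyme-like to -0.03 in photoreceptor-like cells, though its sign turned under some settings in 4 of them. These classes come from the same 2 libraries and are not independent of each other.

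Among the remaining neural classes no member was called in neurogenic-like cells (22 immediate early and 9 heat shock genes measured, 4.06% of all genes called, 2.09% higher and 1.97% lower) or in amacrine-like cells (20 and 9 measured, 4.93% of all genes called, 2.81% higher and 2.12% lower). In photoreceptor-like cells Egr1 was lower, at 31.3 and 18.7 CPM, -0.71 (-1.14 to -0.35), as was Zfp36 at 8.24 and 4.57 CPM, -0.73 (-1.68 to -0.05), and Klf4 was higher at 4.61 and 8.15 CPM, 0.71 (0.01 to 1.69), beside 4.73% of all genes called, 2.13% higher and 2.6% lower. Zfp36 (34 and 23 UMIs) and Klf4 (19 and 41 UMIs) rest on low counts, and Egr1 (129 and 94 UMIs) had 0.23 in cells over 8000 UMIs. The median log2 ratio was -0.10 for the immediate early and -0.04 for the heat shock genes in photoreceptor-like cells.

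Endothelial-like cells were the class in which immediate early genes lay above 0 most broadly. Of 27 measured, 21 had a log2 ratio above 0, the median was 0.29 beside -0.02 for all genes, and Fosb (3.23 and 8.51 CPM, 1.17), Myc (10.3 and 21.3 CPM, 0.98), Klf6 (132 and 210 CPM, 0.66) and Ppp1r15a (41.7 and 63.3 CPM, 0.59) were called higher and none lower, beside 6.47% of all genes called, 1.97% higher and 4.5% lower. Fosb rests on low counts, 11 and 16 UMIs (interval 0.20 to 2.65), and 7 mutant cells held its 16 UMIs. Myc had 35 and 40 UMIs (0.36 to 1.75), and 10 mutant cells held 65% of them. Klf2 was at 1031 and 1328 CPM, 0.36 (0.29 to 0.44), and Dusp1 at 338 and 451 CPM, 0.41 (0.29 to 0.55). Among cells over 8000 UMIs, 170 and 95 with medians of 12542.5 and 12979 UMIs, the same 4 genes were called higher, with log2 ratios of 1.36, 1.02, 0.65 and 0.62. In cells thinned to 1000 UMIs, however, the log2 ratio of Klf6 was 0.18, as was the median of the 21 immediate early genes then measured. Thinned endothelial-like cells with a Ppp1r15a UMI numbered 12 of 387 in the control and 4 of 159 in the mutant, and with a Myc UMI 4 and 1, shares with overlapping intervals that lie lower in the mutant. Ppp1r15a was past 1.5-fold in 7 of the 11 settings that measured it. The heat shock genes had a median of -0.09, with Hspb1 the highest at 174 and 260 CPM, 0.58 (0.40 to 0.75).

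In mesenchyme-like cells all 10 heat shock genes were measured, 9 lay below 0 with a median of -0.10, and Hspa1b was called lower, at 133 and 86.7 CPM, -0.61 (-0.73 to -0.51), with Hspa1a close to the limit at 108 and 72.5 CPM, -0.57 (-0.70 to -0.46); 3.72% of all genes were called, 1.15% higher and 2.57% lower. The log2 ratio of Hspa1b in mesenchyme-like cells was smaller under several settings: it was -0.30 with each cell weighted equally, -0.17 after thinning and -0.24 with classes from a Louvain resolution of 0.5. Without a mesenchyme-like cluster held almost wholly by the control, a setting chosen after seeing the data, it was -0.68. Of the 28 immediate early genes none was called, the median was -0.09, and Junb, at 297 and 225 CPM, had -0.40 (-0.47 to -0.33) in this class while it was at 1.15 in RPE-like cells.

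**Figure D4:**
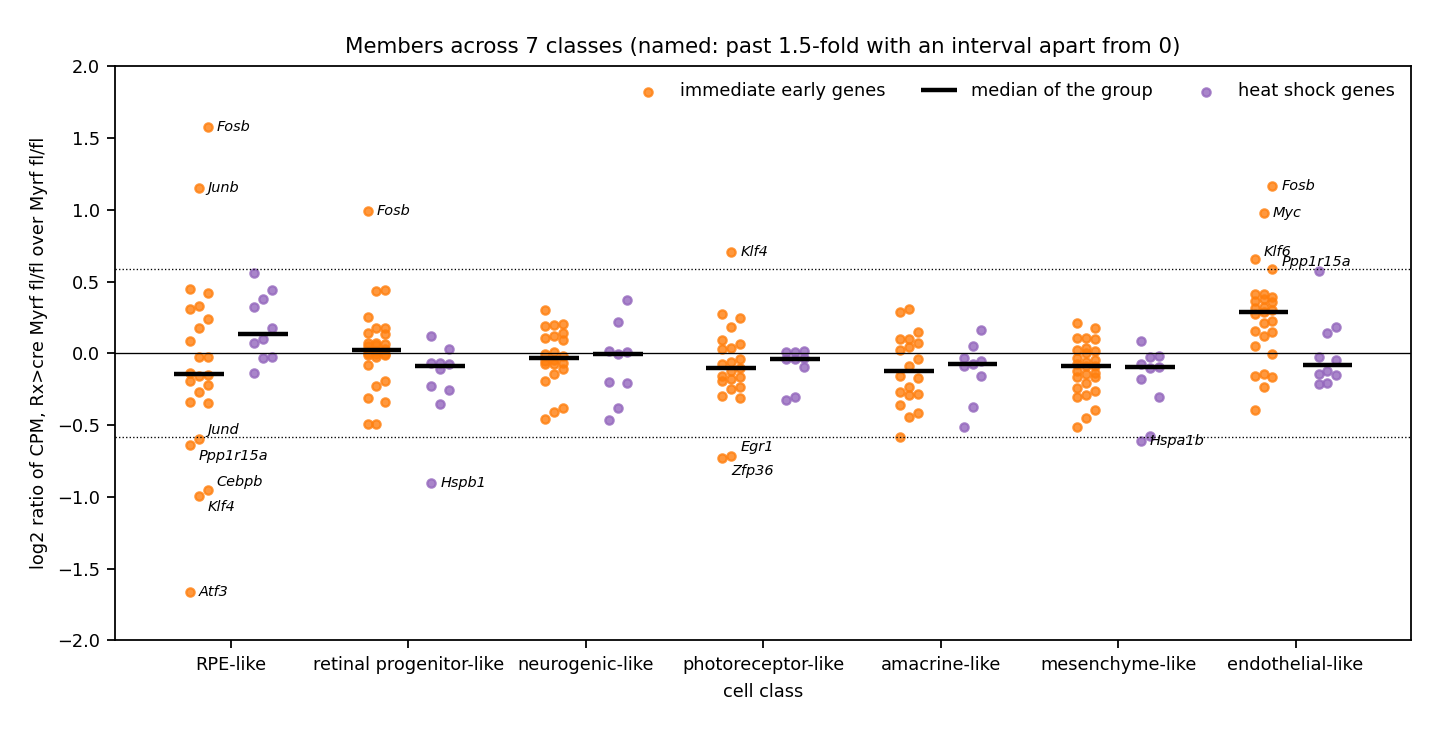
Log2 ratio of CPM (mutant over control) of each measured member in the 7 compared classes, immediate early genes in orange and heat shock genes in purple, with group medians as black bars and dotted lines at 1.5-fold; genes past 1.5-fold with an interval apart from 0 are named. Immediate early medians run from -0.14 in RPE-like to 0.29 in endothelial-like cells, and called heat shock genes are Hspb1 in retinal progenitor-like and Hspa1b in mesenchyme-like cells.

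Neighboring pathways were read from longer lists in RPE-like cells. Against the 14.8% of all genes called in these cells (5.52% higher and 9.31% lower), of 29 measured other immediate early genes 4 were higher and 1 lower, with a median log2 ratio of -0.18. The higher ones were Dusp5, a phosphatase induced by ERK signaling, at 8 and 23 UMIs (1.68), Per1, a clock gene, at 16.4 and 27.9 CPM (0.73), and Sgk1, a kinase induced by serum and glucocorticoid, at 583 and 956 CPM (0.71), with Cyr61, named here after its value was seen, at 218 and 337 CPM (0.63). Dusp6, the feedback phosphatase of ERK, was lower at 76.4 and 41.8 CPM, -0.85 (-1.22 to -0.52). Of 41 other cytosolic and mitochondrial chaperones none was higher and only Bag3, a co-chaperone of Hsp70 induced by heat shock factor 1, was lower, at 53 and 17 UMIs, -1.03 (-2.003 to -0.31). Of 19 genes of endoplasmic reticulum and integrated stress, the folding factors Calr (381 and 629 CPM, 0.72), Pdia4 (124 and 203 CPM, 0.71) and Pdia3 (272 and 421 CPM, 0.63) were higher and none was lower. All values of these lists are from RPE-like cells of every depth, not from a narrow range of depth. Dusp5 and Bag3 rest on low counts.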

How the data were processed

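The authors deposited gene by cell matrices of raw UMI counts for 1 control and 1 mutant library (10x Genomics 3′ chemistry), aligned to mm10. Per the labels Cell Ranger 7.1.0 made them, while the matrix headers name 3.1.0; the annotation and strand setting are not given in the sources used here. Cells with at least 200 genes and at most 15% mitochondrial UMIs were kept. Doublets ranked by Scrublet (scanpy 1.11.5) were removed at the expected rate, 1617 control and 1176 mutant barcodes, because its own threshold marked 0% and 5.06%. Libraries were integrated in Seurat 5.3.0 (CCA, 1929 variable genes with the genes described here left out, 30 components, Louvain at resolution 1), and clusters were named from marker genes, which can differ from the names the study used. Lens-like cells (233 and 1) were not compared.

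UMIs were summed per class. Ratios carry exact conditional Poisson intervals and shares Clopper-Pearson intervals, which cover counting error only and not the spread between animals. The ratio, its interval and the call were checked on simulated Poisson sums per class, which hold no differences between cells or animals. Members and lists were chosen with earlier results of these data known. Text names all called members, the levels the descriptions turn on, and from the other lists the 3 called genes farthest from 0 in each direction in RPE-like cells. Alternatives changed scaling (edgeR 4.0.16 TMM, median ratio), filters, doublet removal, clustering and depth.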

Additional observations from a re-analysis of the deposited data

Results flagged for a closer look

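Klf4 had opposite directions in the mutant in 2 classes, with a log2 ratio of 0.71 in photoreceptor-like cells and -0.997 in RPE-like cells. Ppp1r15a likewise had 0.59 in endothelial-like cells and -0.64 in RPE-like cells. With 1 library per genotype the difference was not tested in either case.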

How the results depend on the processing

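The immediate early median in RPE-like cells (-0.14) ran from -1.06 to -0.02 over the alternatives and stayed below 0. It moved to -1.06 in cells of at most 2000 UMIs (8 genes measured) and to -0.65 in cells of 1000 to 4000 UMIs (12 genes). The heat shock median there (0.14) ran from -0.09 to 0.28 and was below 0 only in thinned cells. In retinal progenitor-like cells the immediate early median (0.02) moved to 0.61 at no more than 2000 UMIs, and the heat shock median (-0.09) to -0.25 there and to -0.28 over 8000 UMIs. At no more than 2000 UMIs Ppp1r15a reversed in RPE-like cells (0.41), as did the heat shock median of mesenchyme-like cells (0.018), and over 8000 UMIs Egr1 reversed in photoreceptor-like cells (0.23). The cause was not tested. Of the called members of RPE-like cells, Fosb kept its call size in 11 of 11 settings that measured it, Junb in 12 of 12, Atf3 in 10 of 10, Klf4 in 9 of 10, Cebpb in 10 of 13, Ppp1r15a in 10 of 14 and Jund in 8 of 14. Of those of endothelial-like cells, Fosb did in 10 of 11, Klf6 in 12 of 13, Myc in 11 of 11 and Ppp1r15a in 7 of 11. No paired analysis was possible because each genotype has 1 library, and for the same reason no replicate could be left out. Median depth of RPE-like cells was 2442.5 UMIs for the control library against 10369 for the mutant one. The effect of this difference on genes with low counts was not tested.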
